A study of Mus musculus with 28 samples.

Results

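The genes described here are Slc23a1 and Slc23a2, which encode the sodium-coupled vitamin C transporters SVCT1 and SVCT2, and Gulo and Rgn, which encode the final enzymes of vitamin C synthesis. They were chosen by name from 18820 genes that have a probe set naming no other gene, because Slc23a1 was higher at 12 than at 6 months. All 4 were found, each by 1 probe set. Mice make vitamin C (ascorbate) in the liver from glucose, through UDP-glucuronate, glucuronate and gulonate. Regucalcin, the product of Rgn, is the lactonase that closes the gulonate ring, and gulonolactone oxidase, the product of Gulo, makes ascorbate from the lactone. Humans carry GULO only as a pseudogene and depend on dietary vitamin C. Regucalcin is also known as senescence marker protein 30, a name that comes from its decline with age in rat liver.

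Livers of 28 male C57BL/6J mice were hybridised to single-colour arrays, 1 array for each mouse. The switched livers (n = 8) came from mice that ate the medium fat diet (25% of energy from fat) from 9 weeks to 12 months of age. These mice were then moved to the intermittent diet and were sampled at 24 months. The other mice ate the intermittent diet from 9 weeks of age and were sampled at ages of 6 months (6 mice), 12 months (7 mice) or 24 months (7 mice). On the intermittent diet, 1 week of medium fat food without limit alternated with 1 week at 60% of the energy eaten by control mice. The control, calorie-restricted and continuous medium fat livers of the study were not analysed here, so that every mouse described was on the intermittent diet when it was sampled. All mice were fasted for 4 hours, gavaged with carboxymethyl cellulose and fasted for a further 6 hours. Among the lifelong groups an older mouse had also spent longer on the diet, so that age and diet duration cannot be told apart. The labels give no week of the diet cycle for the sampling.

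Levels are log2 expression values as deposited, so that a difference of 1 is a doubling. Array medians ranged from 5.23 to 5.31, and the number of arrays limits the precision of each difference. The array names in the labels begin with G150, G151 or G152, called array batches here, and each batch holds all 4 groups: G150 held 6 switched livers and 4 of each age, and G151 and G152 held 1 or 2 of each group. Hepatocyte markers were bright in all groups, with a mean log2 level over 12 measured genes of 12.60 to 12.73 in switched livers, 12.68 to 12.79 at 6 months, 12.61 to 12.77 at 12 months and 12.58 to 12.81 at 24 months. Kidney tubule and gut epithelial markers, from tissues where SVCT1 is also known to work, were dim, with means over 8 genes between 4.74 and 5.04 in all 28 livers. In a bulk liver sample, fewer cells of a type and less RNA per cell cannot be told apart.

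Slc23a1, the transporter of absorbing and secreting epithelia and of hepatocytes, was low in the youngest livers and higher in the 3 other groups. Its log2 levels at 6 months were 9.49, 8.72, 8.93, 9.15, 9.74 and 9.50 in replicates 1 to 6. At 12 months its levels ran from 9.91 to 10.37 with a median of 10.04, and at 24 months from 9.71 to 10.59 with a median of 10.30. Each 12-month liver lay above the highest 6-month liver, while 1 of 7 livers at 24 months, replicate 6, lay just below it. The 6-month replicates 2, 3 and 4 were the lowest of the 28 livers.

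The difference between 12 and 6 months is the one by which the gene was chosen, so that it is described and was not tested. Slc23a1 averaged 10.09 ± 0.19 (SD, n = 7) at 12 months and 9.25 ± 0.39 (SD, n = 6) at 6 months, a fitted difference of 0.84 (SE 0.16), or 1.79-fold. It was 0.89, 0.77 and 0.83 within batches G150, G151 and G152, with 1 liver at 6 months in G151 and 1 in G152. In fits that left out 1 liver it stayed between 0.75 and 0.95. These values come from the livers that chose the gene, so they are a description and no separate support. At 24 months Slc23a1 averaged 10.24 ± 0.29 (SD, n = 7), and the fitted difference from the same 6-month livers was 0.95 (SE 0.16), or 1.93-fold. Within batches the 24 minus 6 month difference was 0.93, 1.00 and 0.98. Between 24 and 12 months the fitted difference was 0.11 (SE 0.15), with a 95% interval from -0.21 to 0.42. The comparisons with 6 months share their 6-month livers, and the 24-month comparisons share their 24-month livers.

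**Figure D1:**
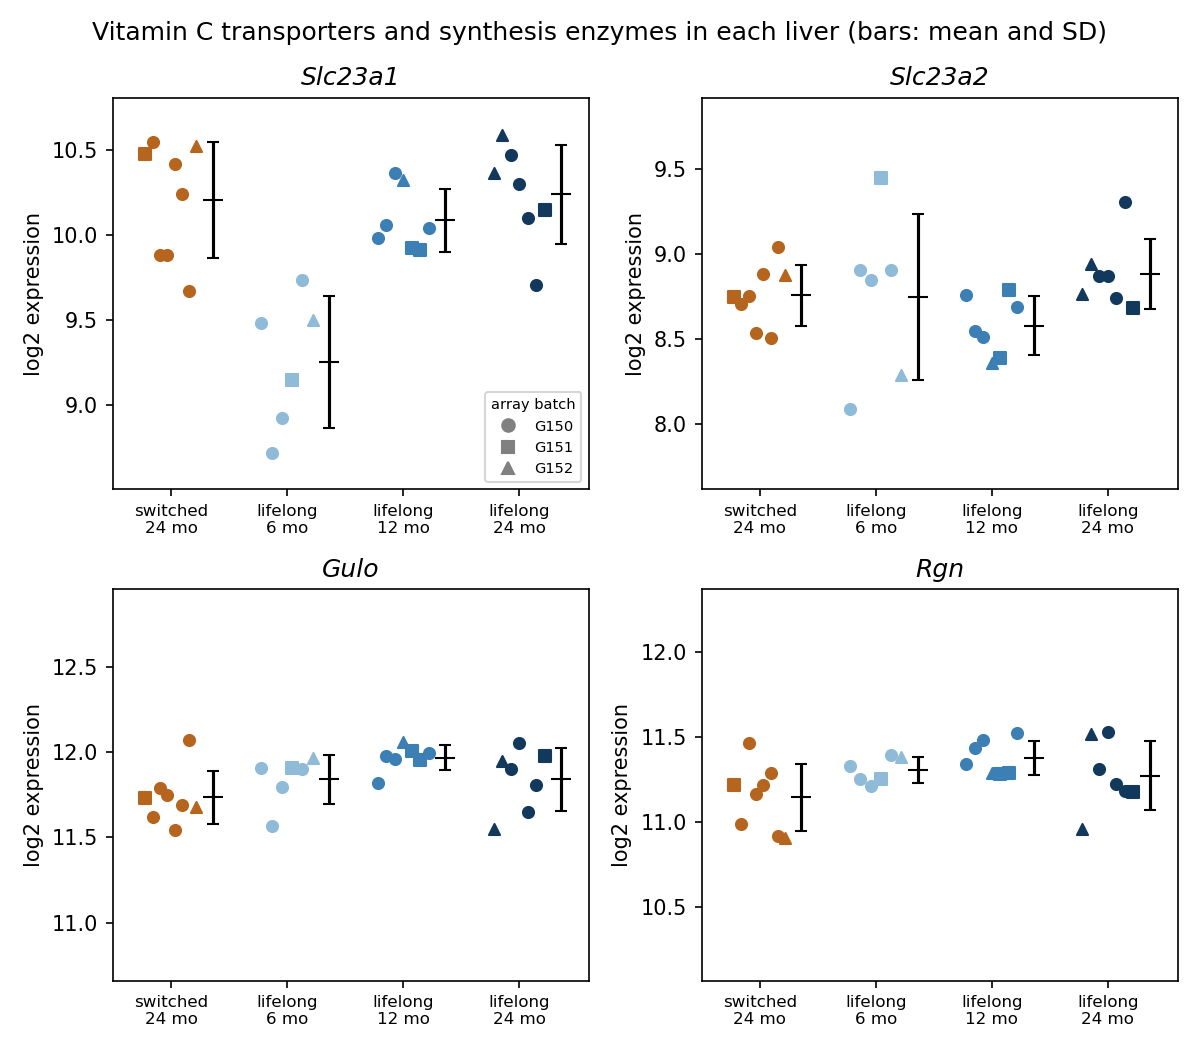
Log2 expression (vertical axis, each panel spanning the same number of log2 units) of Slc23a1, Slc23a2, Gulo and Rgn in each of 28 livers, grouped as switched at 24 months and lifelong intermittent diet at 6, 12 and 24 months. Point shapes give the array batch and bars the mean and SD. The 6-month Slc23a1 levels, between 8.72 and 9.74, lie below all 12-month levels, whereas the Gulo and Rgn groups overlap throughout.

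Neither 24-month group entered the choice of the gene, so the comparison of the diet histories is a test. Slc23a1 levels were 10.48, 10.55, 9.89, 9.89, 10.42, 10.24, 9.67 and 10.52 in switched replicates 1 to 8. The lifelong 24-month livers had 10.37, 10.59, 10.47, 10.30, 10.10, 9.71 and 10.15 in replicates 1 to 7. Both groups covered the same range, and each had 1 liver below 9.74, the highest level seen at 6 months. Switched livers averaged 10.21 ± 0.34 (SD, n = 8) and lifelong livers 10.24 ± 0.29 (SD, n = 7). The fitted difference of 0.02 (SE 0.15) did not pass in limma (adjusted p = 0.993), with a 95% interval of 0.82- to 1.25-fold. Its sign was not settled: within batches it was -0.04, 0.33 and 0.04. Of the 4 genes, 0 passed in limma in this comparison (0 at an unadjusted p under 0.05), in which 0.0197% of 35556 probe sets were called.

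Slc23a2, the transporter found in most tissues, showed no such step with age, and its widest spread was among the 6-month livers. There it had log2 levels of 8.09, 8.90, 8.85, 9.45, 8.90 and 8.29 in replicates 1 to 6, a range that held all other livers. Levels ran from 8.51 to 9.04 in switched livers, with a median of 8.75. They ran from 8.36 to 8.79 at 12 months, with a median of 8.55, and from 8.68 to 9.30 at 24 months, with a median of 8.87. The 12- and 24-month groups overlapped between 8.68 and 8.79. Each of the 7 lifelong 24-month livers exceeded the mean at 12 months, and 4 lay above the highest 12-month liver.

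At 24 months Slc23a2 averaged 8.88 ± 0.21 (SD, n = 7), against 8.58 ± 0.17 (SD, n = 7) at 12 months. The fitted difference was 0.34 (SE 0.15), or 1.26-fold, and did not pass in limma (adjusted p = 0.379, unadjusted p = 0.0285). It was 0.32, 0.10 and 0.49 within batches. Against 6 months, where it averaged 8.75 ± 0.49 (SD, n = 6), the 24-month difference was 0.15 (SE 0.15, limma adjusted p = 0.642) and differed in sign between batches, with 0.26, -0.76 and 0.56. The negative value sets a single 24-month liver against 6-month replicate 4, the highest of all. Between 12 and 6 months, described without a test, the difference was -0.18 (SE 0.15). Leaving out 6-month replicate 1 or replicate 4 moved it to -0.32 or -0.01, and moved the 24 minus 6 month difference to 0.02 or 0.30. Switched livers averaged 8.76 ± 0.18 (SD, n = 8), lower than lifelong 24-month livers by a fitted 0.15 that did not pass (limma difference -0.15, SE 0.14, adjusted p = 0.873). The other members of the SLC23 family, Slc23a3 and the nucleobase transporter Slc23a4, had means between 3.81 and 4.31 in all groups. These means lay below the array medians of 5.23 to 5.31. Neither gene passed in limma in any of the 4 comparisons. Of these 8 tests, 1 had an unadjusted p under 0.05, that of Slc23a4 at 24 against 12 months (unadjusted p = 0.0295).

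Neither synthesis gene passed in a tested comparison. In switched livers Gulo ran from 11.55 to 12.07 with a median of 11.71. It had log2 levels of 11.91, 11.57, 11.80, 11.91, 11.90 and 11.97 at 6 months in replicates 1 to 6. It ran from 11.82 to 12.06 at 12 months with a median of 11.98, and from 11.55 to 12.05 at 24 months with a median of 11.90. The 12-month livers were the closest to each other, with an SD of 0.07 against 0.14 at 6 months and 0.18 at 24 months, and all groups overlapped. Differences between these spreads were not tested.

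Gulo averaged 11.84 ± 0.18 (SD, n = 7) at 24 months and 11.84 ± 0.14 (SD, n = 6) at 6 months. The fitted difference was 0.00 with an SE of 0.08 (limma adjusted p = 0.999), with a 95% interval of 0.89- to 1.13-fold. Within batches it was 0.06, 0.07 and -0.22. At 24 against 12 months, where the 12-month mean was 11.97 ± 0.07 (SD, n = 7), Gulo differed by -0.12 (SE 0.08, adjusted p = 0.616). Between 12 and 6 months, described without a test, the difference was 0.12 (SE 0.08). Switched livers averaged 11.74 ± 0.16 (SD, n = 8), with a difference from lifelong 24-month livers of -0.10 (SE 0.08, limma adjusted p = 0.822). That difference was below 0 in each batch, at -0.11, -0.24 and -0.07, and its 95% interval was 0.83- to 1.04-fold.

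Rgn ran from 10.91 to 11.46 in switched livers, with a median of 11.19. It had log2 levels of 11.33, 11.25, 11.21, 11.25, 11.39 and 11.38 at 6 months in replicates 1 to 6. The 12-month levels lay close by, from 11.28 to 11.52 with a median of 11.34. The 24-month livers spread more widely, with 10.96, 11.52, 11.31, 11.53, 11.22, 11.18 and 11.17 in replicates 1 to 7. The lifelong 24-month group thus held 4 livers below the lowest 12-month liver and 1 above the highest. The SD was 0.20 in both 24-month groups, 0.08 at 6 months and 0.10 at 12 months, and these spreads were not tested against each other.

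The group means of Rgn ran from 11.14 in switched livers to 11.38 at 12 months. Those of Gulo ran from 11.74 to 11.97 in the same groups. Switched and 12-month livers differ in age and diet history and were not compared by a test. The Rgn mean was 11.27 ± 0.20 (SD, n = 7) at 24 months and 11.30 ± 0.08 (SD, n = 6) at 6 months. The difference was -0.02 (SE 0.09, limma adjusted p = 0.927) with a 95% interval of 0.87- to 1.12-fold. Within batches it was 0.02, -0.08 and -0.15. Against the 12-month mean of 11.38 ± 0.10 (SD, n = 7), the 24-month livers differed by -0.10 (SE 0.09, adjusted p = 0.693), and the value was -0.13, -0.11 and -0.05 within batches. Between 12 and 6 months, described without a test, Rgn differed by 0.08 (SE 0.09). Switched livers averaged 11.14 ± 0.20 (SD, n = 8), with a difference from lifelong 24-month livers of -0.14 (SE 0.08, limma adjusted p = 0.743) and a 95% interval of 0.80- to 1.02-fold. The batches gave -0.14, 0.04 and -0.33 for it.

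**Figure D2:**
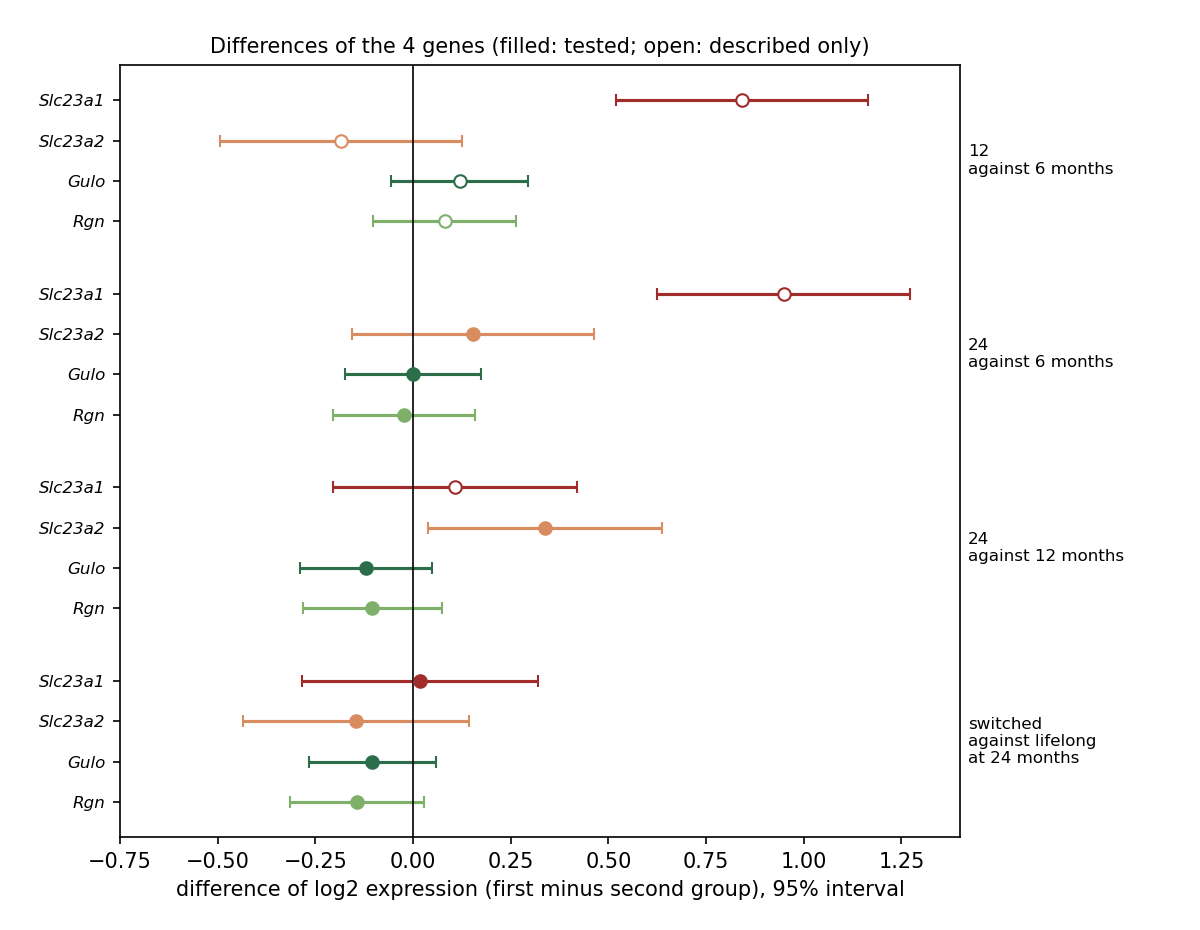
Differences of log2 expression (horizontal axis, first minus second group named at the right) for the 4 genes in the 4 comparisons, from the limma fit, with 95% intervals. Filled points were tested and open points are described only, since they rest on livers that chose Slc23a1. The Slc23a1 differences of 0.84 and 0.95 from 6 months lie apart, and the intervals of Gulo and Rgn hold 0 in all 4 comparisons.

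Over all 10 tests of these genes, 0 passed in limma. At 24 against 6 months 0 of 3 passed (0 at an unadjusted p under 0.05), where 4.73% of all probe sets were called, 2.10% as higher and 2.63% as lower. At 24 against 12 months 0 of 3 passed (1 at an unadjusted p under 0.05, Slc23a2), where 0.0253% were called. Of all 35556 probe sets, 6832 had an unadjusted p under 0.05 in limma at 24 against 6 months and 3953 at 24 against 12 months. There were 4643 at 12 against 6 months and 2696 between switched and lifelong livers. A p that misses the threshold does not show equal levels, and the intervals above give the sizes that these livers leave possible.

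The 4 genes showed no pair that passed a test of moving together from liver to liver. Deviations from the group means were compared for the 6 pairs of genes over 28 livers, with two-sided permutation tests of 100000 resamples and Benjamini-Hochberg adjustment over the 6 pairs. Slc23a1 and Slc23a2 had Pearson's r of -0.34 (permutation p = 0.0718, adjusted p = 0.427) and Spearman's rho of -0.29 (permutation p = 0.141, adjusted p = 0.334). Without the 2 livers farthest from the median of Slc23a1, r was -0.32, and in batch G150 alone, with 18 livers, it was -0.42 (permutation p = 0.0783). Gulo and Rgn, which act in succession, had r of 0.29 (permutation p = 0.142, adjusted p = 0.427) and rho of 0.27 (permutation p = 0.167, adjusted p = 0.334). That r was 0.18 without the 2 livers farthest from the Gulo median and 0.14 in batch G150. With deviations taken from the fit of group and batch, Gulo and Rgn had r of 0.33 (permutation p = 0.0842, adjusted p = 0.283) and rho of 0.45 (permutation p = 0.0179, adjusted p = 0.084). Slc23a1 and Rgn then had r of 0.32 (permutation p = 0.0944, adjusted p = 0.283) and rho of 0.42 (permutation p = 0.028, adjusted p = 0.084). Slc23a1 with Gulo had r of 0.01 (permutation p = 0.953, adjusted p = 0.953) and rho of 0.13 (permutation p = 0.496, adjusted p = 0.559). Within groups, described without a test, that r was -0.81 in 8 switched livers, 0.81 in 6 livers at 6 months, 0.36 in 7 at 12 months and 0.18 in 7 at 24 months, so that the pooled value near 0 joins groups of opposite sign. Other pairs also changed sign between these small groups. For Slc23a2 with Gulo r was -0.70 at 12 months and 0.40 in switched livers. For Slc23a1 with Rgn it was 0.89 at 6 months and -0.16 in switched livers, and for Gulo with Rgn 0.78 at 24 months and -0.22 in switched livers. Slc23a1 with Slc23a2 stayed below 0, from -0.52 to -0.10. No pair of the 6 passed by r or rho, with a lowest adjusted p of 0.334 for deviations from group means. Batches G151 and G152 held 5 livers each, too few for a value.

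Genes that lead from glucose to the last 2 steps were read from a list of 8 that contains Rgn and Gulo. Akr1a1, the aldehyde reductase that makes gulonate from glucuronate, rose at 24 against 6 months, where 2.10% of all probe sets were called as higher. The other 5 genes that are not described above did not pass. Of the 8 genes, 2 had an unadjusted p under 0.05 in limma in that comparison. Akr1a1 had log2 levels from 11.70 to 11.96 at 24 months, with a median of 11.75, and from 11.51 to 11.64 at 6 months, with a median of 11.58. All 7 livers at 24 months lay above the highest 6-month liver. This describes a gene picked for its call and is no separate support, and such separation was not counted over all probe sets. The means were 11.79 ± 0.10 (SD, n = 7) and 11.58 ± 0.05 (SD, n = 6), a fitted difference of 0.20 (SE 0.05, limma adjusted p = 0.0242). In 13 fits that left out 1 liver the call was lost in 5: replicates 1 and 3 of the 24-month group and replicates 3, 4 and 6 of the 6-month group, with an adjusted p of at most 0.0991. It was also lost in batch G150 alone (adjusted p = 0.351) and in a fit of the 2 groups (adjusted p = 0.0844). Ugdh, which oxidises UDP-glucose to UDP-glucuronate, differed by 0.24 (adjusted p = 0.442), and the lysosomal glucuronidase Gusb by 0.26 (adjusted p = 0.243). The list median was 0.03 at 24 against 6 months, against 0.00 over all 1-gene values, and 0 of 8 passed in limma at 24 against 12 months or between switched and lifelong livers (0 at an unadjusted p under 0.05 in each). Of 6 genes on other routes out of glucuronate and gulonate, 4 were measured and 0 passed in limma in any comparison. The xylulose reductase Dcxr differed by 0.21 at 24 against 6 months (adjusted p = 0.282), and by 0.32 at 12 against 6 months (adjusted p = 0.162), the 1 value with an unadjusted p under 0.05.

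Oxidised vitamin C enters cells through glucose transporters and is reduced again by enzymes that include glutathione- and NADPH-dependent ones. Of 13 measured genes of this uptake and recycling, the mitochondrial thioredoxin reductase Txnrd2 rose at 24 against 6 months and 12 did not pass. At an unadjusted p under 0.05 in limma there were 4 of 13, against 6832 of all 35556 probe sets. Over all probe sets 2.10% were called as higher in that comparison. Txnrd2 ran from 7.28 to 7.44 at 24 months and from 7.03 to 7.17 at 6 months, so that the groups did not overlap. Again, this describes a gene picked for its call. The fitted difference of Txnrd2 was 0.24 (SE 0.06, limma adjusted p = 0.0257). It was lost in 5 of the 13 fits, those leaving out replicates 1 and 6 of the 24-month group and replicates 2, 3 and 4 of the 6-month group, with an adjusted p of at most 0.0657, and in batch G150 alone (adjusted p = 0.128). Slc2a2, the glucose transporter of hepatocytes, differed by 0.25 (adjusted p = 0.0726) and Cyb5r3, a cytochrome b5 reductase, by 0.19 (adjusted p = 0.101). The list median was 0.04. At 24 against 12 months and between switched and lifelong livers, 0 of 13 passed in limma, with 0 and 1 at an unadjusted p under 0.05. At 12 against 6 months, the contrast that chose Slc23a1, 1 of 13 was called (Slc2a2), where 0.591% of all probe sets were. The Slc2a2 call was lost in 9 of 13 fits that left out 1 liver (adjusted p of at most 0.115) and in 4 of 10 other settings, among them batch G150 alone (adjusted p = 0.648). Of the 6 genes of the synthesis list beside Gulo and Rgn, 0 passed in limma there, with 1 (Akr1a1) at an unadjusted p under 0.05.

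Ascorbate keeps iron active in dioxygenases that hydroxylate collagen, hypoxia-inducible factor and methylated DNA. Of 18 such genes and relatives, 1 rose and 1 fell at 24 against 6 months, and 16 did not pass, where 4.73% of all probe sets were called. At an unadjusted p under 0.05 in limma there were 9 of 18, against 6832 of all 35556 probe sets. Plod1, a lysyl hydroxylase of collagen, ran from 9.54 to 9.84 at 24 months and from 9.43 to 9.57 at 6 months with a narrow overlap, and rose by 0.27 (SE 0.07, limma adjusted p = 0.0358). P4ha2, a subunit of collagen prolyl hydroxylase, fell by 0.37 (SE 0.11, limma adjusted p = 0.0426), with 5.02 to 5.28 at 24 months and 5.23 to 5.79 at 6 months, again overlapping narrowly. The P4ha2 means, 5.14 at 24 months and 5.50 at 6 months, lay near the array medians of 5.23 to 5.31. P4ha1, a relative of P4ha2, differed by -0.47 (adjusted p = 0.0617). In 13 fits that left out 1 liver Plod1 was lost in 9 and P4ha2 in 10, with adjusted p of up to 0.0988 and 0.138. They were also lost in 3 and 5 of 10 other settings, among them a replicate block (adjusted p = 0.0921 and adjusted p = 0.0919) and batch G150 alone (adjusted p = 0.123 and adjusted p = 0.216). The list median was -0.01, and 0 of 18 passed in limma at 24 against 12 months or between switched and lifelong livers, with 2 at an unadjusted p under 0.05 in each.

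**Figure D3:**
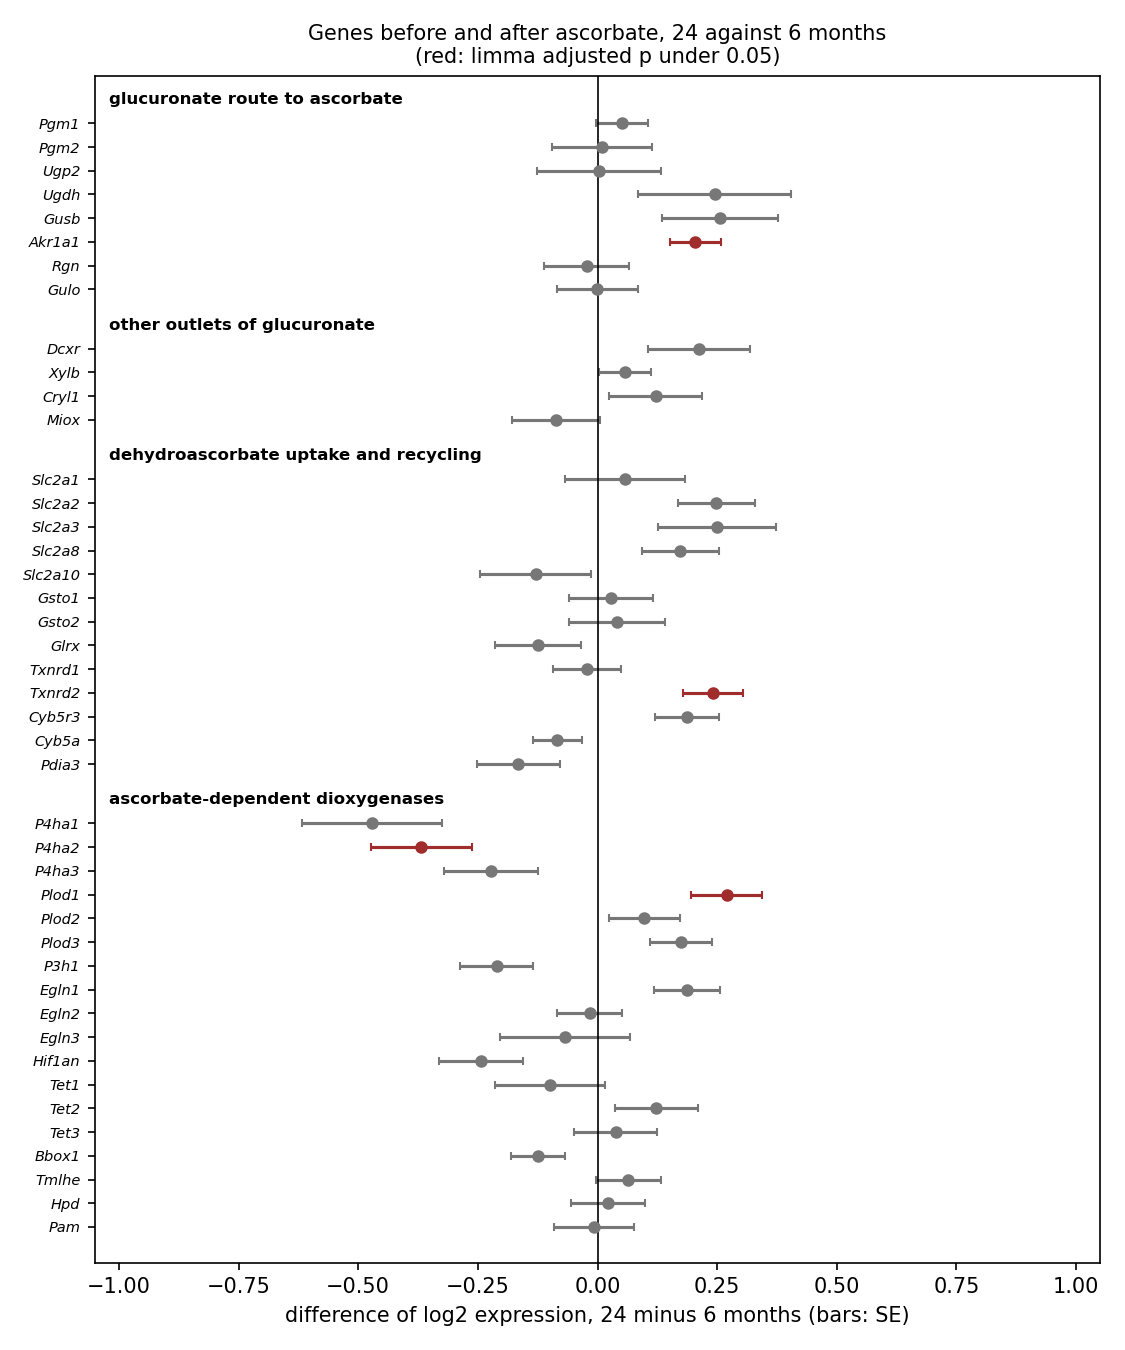
Difference of log2 expression at 24 minus 6 months (horizontal axis, bars show the SE) for the measured genes of 4 lists around ascorbate, 1 gene on each line. Red points had a limma adjusted p under 0.05: Akr1a1 (0.20), Txnrd2 (0.24) and Plod1 (0.27) above 0 and P4ha2 (-0.37) below it.

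Among markers of other cells, 6 of 9 measured B and plasma cell genes and 3 of 15 macrophage genes rose at 24 against 6 months, against 2.10% of all probe sets. In the same comparison 0 of 10 T and NK cell, 0 of 10 endothelial, 0 of 10 stellate and 0 of 6 cholangiocyte genes passed in limma. Of these, 1, 1, 3 and 1 had an unadjusted p under 0.05. The mean log2 level of the B and plasma cell genes ran from 5.39 to 6.50 in switched livers, 4.84 to 5.11 at 6 months, 4.94 to 5.59 at 12 months and 5.32 to 6.47 at 24 months. That of the macrophage genes ran from 7.83 to 9.53 in switched livers, 7.69 to 8.14 at 6 months, 7.46 to 7.78 at 12 months and 7.56 to 9.06 at 24 months. At 12 against 6 months 0 of 9 and 0 of 15 passed in limma (3 and 0 at an unadjusted p under 0.05). At 24 against 12 months 1 of 9 rose and 0 of 15 passed in limma, where 0.0253% of all probe sets were called. In that comparison 9 and 12 had an unadjusted p under 0.05. The list medians were 0.74 and 0.67 there, and 0.75 and 0.39 at 24 against 6 months. Among hepatocyte markers 1 of 12, the tyrosine aminotransferase Tat, fell at 24 against 6 months by 0.42 (limma adjusted p = 0.0355). Over all probe sets 2.63% were called as lower, and the list median was -0.02. The part of these shifts in the differences between ages was not tested.

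The genes whose levels ran most like each of the 4 were found by Pearson's r over the 28 livers, among 16469 named genes. These values describe the same arrays, which share normalisation and the differences between groups, and they were picked as the extremes, so that no p is given. For Slc23a1 they were Mr1, an MHC-related molecule that presents vitamin B metabolites (r = 0.91, rho = 0.90), Ropn1l (r = 0.91, rho = 0.91), the signalling adaptor Stap1 (r = 0.91, rho = 0.86), Ebpl (r = 0.88, rho = 0.89) and the apolipoprotein Apoa4 (r = 0.88, rho = 0.83). With group means removed, r was 0.81, 0.75, 0.79, 0.77 and 0.68 in the same order. Mr1 thus shared the low 6-month levels, with 7.45, 7.23, 6.93, 7.20, 7.85 and 7.53 in replicates 1 to 6, and its lowest levels fell in the same livers, replicates 2, 3 and 4. The lowest r belonged to the polyamine transport ATPase Atp13a3 (-0.84), the clathrin-uncoating kinase Gak (-0.84) and the lipid droplet dehydrogenase Hsd17b11 (-0.82).

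For Gulo the highest r belonged to the RNA-binding protein gene Rbm4 (0.80), the organic anion transporter Slc22a7 (0.77), the cytochromes Cyp2c54 (0.76) and Cyp1a2 (0.75), and the phospholipase Pla1a (0.74). Slc22a7 averaged 6.74 in switched livers and 7.57, 8.19 and 7.72 at 6, 12 and 24 months. The lowest r was with the lipid droplet protein gene Hsd17b13 (r = -0.87, rho = -0.87, and r = -0.84 with group means removed), followed by the netrin receptor Unc5b and the endosomal trafficking gene Vps26c (both -0.76). Switched replicate 7, the highest of the group in Gulo at 12.07, was the lowest of all livers in Hsd17b13 at 10.62, and the other switched livers had 11.09 to 11.62.

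For Rgn the highest r belonged to the calponin gene Cnn3 (r = 0.83, and 0.86 with group means removed), the deacetylase Aadac (0.82), Nat8f1 (0.79), the transcription factor partner Tfdp2 (0.79) and the serum esterase Pon1 (0.78). The lowest belonged to Ly6d (-0.80), S100a11 (-0.79) and Mfge8 (-0.78). Replicate 1 at 24 months had the lowest Rgn of its group, 10.96, and the highest Ly6d, 7.62, where the other livers of the group had 5.68 to 6.83. For Slc23a2 the highest r belonged to the membrane progestin receptor Paqr7 (0.76), the peroxisome assembly gene Pex16 (0.76), the kinase Sgk2 (0.75), Usp40 (0.75) and the phosphatidylcholine transfer protein gene Pctp (0.74). The lowest belonged to Ivns1abp (-0.70), the sulfotransferase Sult1d1 (-0.69) and Arhgef37 (-0.68). None of the 4 genes was among the extremes of another.

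**Figure D4:**
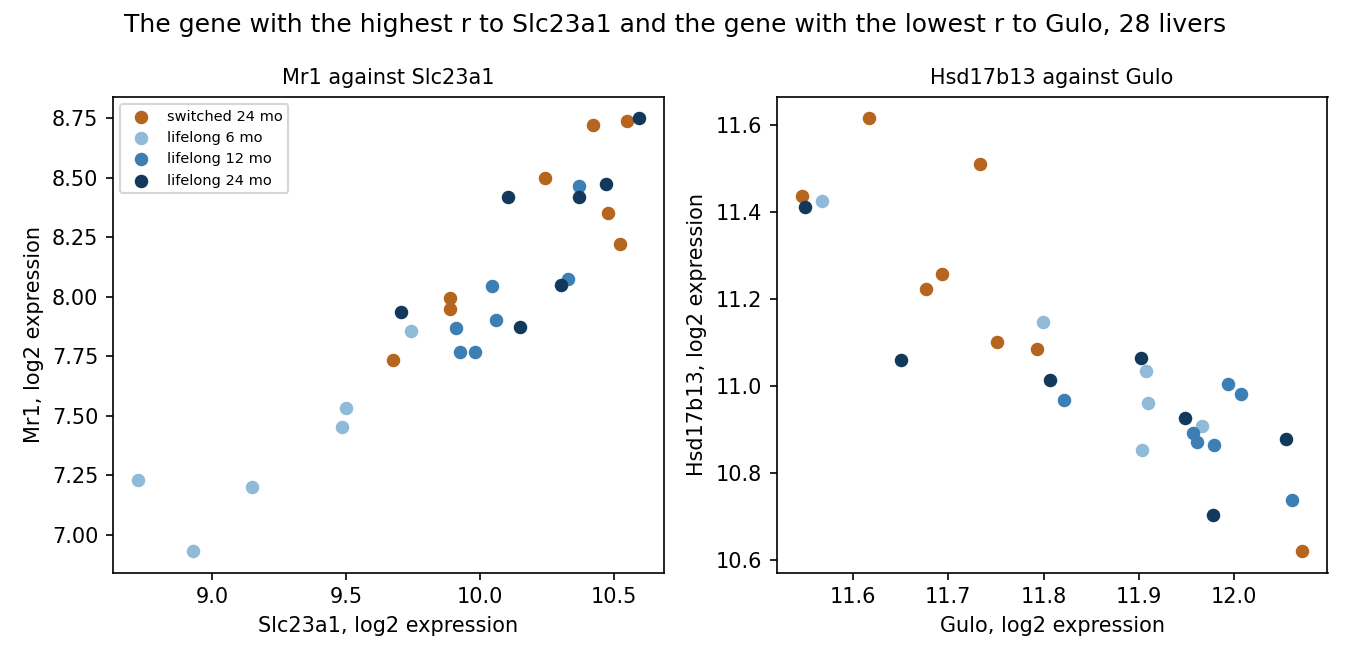
Log2 expression of Mr1 against Slc23a1 (left) and of Hsd17b13 against Gulo (right), each point 1 of 28 livers, coloured by group. Mr1 has r of 0.91 with Slc23a1 and the 6-month livers lie at the lower left, while Hsd17b13 has r of -0.87 with Gulo and switched livers lie mostly at the upper left.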

How the data were processed

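Liver RNA was hybridised to whole-transcript arrays with a biotin label. The deposited values are log2 expression values that the authors made with RMA, per the submitters' processing notes. Its version, and whether all arrays were normalised in 1 run, are not given in the sources used here. Of 35556 probe sets, 21218 name exactly 1 gene in the platform annotation, 1881 name several and 12457 name none; the brightest stood for a gene. No probe set was filtered out, and all 4 members lay above the lowest 30 percent.

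All 28 arrays entered 1 fit in limma 3.58.1 (R 4.3.3) with fixed terms for the 4 groups and for array batch, and empirical Bayes moderation. Tests were two-sided with Benjamini-Hochberg adjustment over all probe sets and a threshold of 0.05. SE is the moderated SE of a difference, and within-batch values are plain differences of means. The fit was tested on simulated data with independent noise for each probe set. That test does not cover the dependence of calls on single livers described below. Named genes are the 4 members, genes of 6 function lists that passed or were among the 3 others of a list with the smallest p, and for each member the 5 genes with the highest and the 3 with the lowest r, passing over predicted genes, olfactory and vomeronasal receptors and small RNAs. The members, lists, tests and rule were chosen with earlier results of these data known. Replicates are separate mice.

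Alternative fits used batch G150 by itself, no term for batch, the compared groups by themselves, probe sets without the lowest 30 percent, repeated quantile normalisation, median centring, a variance trend with robust moderation, a replicate block, 1-gene probe sets alone, no arrays with an added name suffix, and each array left out. Python 3.11.15 with numpy 2.4.6 ran the permutations.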

Additional observations from a re-analysis of the deposited data

Results flagged for a closer look

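Among the 16 sets of values (4 genes in 4 groups), 2 held a liver far from the others of its group by Dixon's criterion, which chance gives in about 1 of 20 sets. Slc23a2 in 24-month replicate 6 was 9.30, where the other 6 livers had 8.68 to 8.94, and the difference of 24 from 12 months was 0.27 without it. Gulo in switched replicate 7 was 12.07, where the other 7 livers had 11.55 to 11.79, and the difference of switched from lifelong livers was -0.15 without it.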

How the results depend on the processing

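The 10 tests of the 4 genes stayed on the same side of the threshold in each alternative, the replicate block included. Signs turned where a difference was close to 0. Gulo at 24 against 6 months became 0.0590 in batch G150 alone, 0.00226 in a fit of the 2 groups and 0.00896 with quantile normalisation repeated, and ran from -0.0525 to 0.0477 without 1 liver. Rgn at 24 against 6 months became 0.0154 in batch G150 and ran from -0.0737 to 0.0199 without 1 liver. Slc23a1 in switched against lifelong livers became -0.0342 with no batch term and -0.0353 in batch G150, and ran from -0.0671 to 0.0845. Deviations of Slc23a1 and Gulo had r of -0.176 without the 2 farthest livers and -0.273 without the 6-month livers, and those of Slc23a2 and Gulo 0.0882 without the 6-month livers, an alternative added after seeing the data. The mean of several probe sets was not run, since each member has 1. Same-numbered livers of different groups did not deviate together: 5 of 39 such pairs correlated above 0.1, with a median of -0.01, so the replicate block rests on numbers alone.

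The number of called probe sets varied more. At 12 against 6 months it was 210, and 108 with no batch term, 0 in batch G150 (2497 at an unadjusted p under 0.05 in limma), 22 in a fit of the 2 groups, 122 with a replicate block, 332 over 1-gene probe sets, 46 without the suffixed arrays and from 7 (without 6-month replicate 4) to 546 (without 6-month replicate 1) when 1 liver was left out. At 24 against 6 months it was 1681, and 194 in batch G150, 736 in a fit of the 2 groups and from 831 (without 6-month replicate 3) to 2370 (without 24-month replicate 7) when 1 was left out. At 24 against 12 months it was 9, and 3 with no batch term, 0 in batch G150 and with a replicate block (3415 and 3771 at an unadjusted p under 0.05 in limma), 1 in a fit of the 2 groups, 33 with dim probe sets left out, 31 over 1-gene probe sets, 39 without the suffixed arrays and from 1 (without 24-month replicate 5) to 124 (without 24-month replicate 4) when 1 was left out. Between switched and lifelong livers it was 7, and 2 in batch G150 and with a replicate block, 0 in a fit of the 2 groups (2492 at an unadjusted p under 0.05 in limma), 1 without the suffixed arrays and from 1 (without 24-month replicate 4) to 36 (without 24-month replicate 1) when 1 was left out. The cause was not tested, beyond the smaller number of livers or probe sets in some fits.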

Other observations

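Vitamin C acts beside other reducing systems of the liver, and of 15 listed genes of defence against reactive oxygen 13 were measured. At 24 against 6 months 1 of 13 rose, the quinone reductase Nqo1, where 2.10% of all probe sets were called as higher. Nqo1 averaged 5.82 ± 0.50 (SD, n = 7) at 24 months and 5.10 ± 0.26 (SD, n = 6) at 6 months. The 6-month mean lay below the array medians of 5.23 to 5.31. The difference between the ages was 0.74 (SE 0.22, limma adjusted p = 0.0474). Each of the 7 lifelong 24-month livers exceeded the mean at 6 months. The groups overlapped, with 5.29 to 6.66 at 24 months and 4.76 to 5.39 at 6 months, and the list median was 0.03. The Nqo1 call was lost in 9 of 13 fits that left out 1 liver, with an adjusted p of at most 0.143, and in 4 of 10 other settings, among them batch G150 alone (adjusted p = 0.388). Switched livers averaged 6.40 in Nqo1, with a difference from lifelong 24-month livers of 0.56 that did not pass (adjusted p = 0.496), and 0 of 13 genes passed in limma there, with 3 at an unadjusted p under 0.05.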
